A study of Mus musculus with 20 samples.

Results

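The genes described are 10 matrix genes of the mouse: the fibrillar collagen chains Col1a1, Col1a2, Col3a1, Col5a1 and Col5a2, the cross-linking enzymes Lox, Loxl1 and Loxl2, and the small leucine-rich proteoglycans Dcn and Lum. They were chosen by gene symbol, and every probe set that the array's gene table assigns to 1 of these symbols was taken, which gave 17 probe sets of 45037 for 10 of 17097 genes. Of the 17, 16 were bright enough to be tested among 26897 probe sets in all. The exception was 1 of the 3 probe sets of Lox, which lay above its array's median in 1 of 20 arrays. The members were followed over 20 arrays in 4 groups. CDS tumors (n = 6) were CIC-DUX4 sarcomas grown under the skin of Balb/c nude mice from embryonic mesenchymal cells (eMC) carrying the human CIC-DUX4 fusion. ES tumors (n = 6) are labelled mouse Ewing sarcoma, also grown subcutaneously in Balb/c nude mice, and the labels name neither their cell of origin nor their fusion. The other arrays came from primary eMC 48 hours after spinofection with the retrovirus pMYs-CIC-DUX4-IRES-GFP (eMC CIC-DUX4, n = 4) or with pMYs-IRES-GFP (eMC empty, n = 4). Both tumor types were untreated. Nothing in the labels tells if each eMC array is its own culture, so p-values there measure the spread between these samples, which may be technical. The nude mouse host keeps its own fibroblasts, vessels and macrophages, and the tumors were profiled as whole tissue.

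Fibrillar collagens are the rope-like proteins that give connective tissue its strength. Type I collagen is a trimer of Col1a1 and Col1a2 chains, type III of Col3a1 alone, and type V, a minor chain mixture that sets the diameter of type I fibrils, of Col5a1 and Col5a2. Lysyl oxidases (Lox and its relatives Loxl1 and Loxl2) oxidise lysines of collagen and elastin outside the cell so that neighbouring molecules become covalently joined, and Loxl1 is best known for its part in elastic fibres. Decorin (Dcn) and lumican (Lum) coat the fibrils and limit their lateral growth. Embryonic mesenchymal cells and fibroblasts are strong producers of all of these proteins, whereas Ewing sarcoma is classically a small round cell tumor with little matrix.

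Positions are those of build GRCm38.p6. On it, Col3a1 (chr1:45311538-45349706) and Col5a2 (chr1:45374331-45503282) are neighbours, and so are Dcn (chr10:97479500-97518163) and Lum (chr10:97565501-97572703). Col1a1 lies at chr11:94936224-94953042, Col1a2 at chr6:4505618-4541543, Col5a1 at chr2:27886381-28039510, Loxl1 at chr9:58287723-58313212 and Loxl2 at chr14:69608692-69695834. RefSeq promoter windows were at hand for 3 of the 10 members, and the bases before the annotated gene start are shown because these collagen genes were measured in the same arrays while their upstream sequences are of very different composition. Capitals mark matches, on either strand, to the CCAAT box, to the TATAAA box, to the GC box GGGCGG or to 4 octamers bound by CIC, which are TGAATGAA or TGAATGGA and their forms TCAATGAA or TCAATGGA; no motif searched contains another. Each sequence runs 5′ to 3′ on the plus strand, which is the coding strand.
Col3a1, chr1:45311288-45311537: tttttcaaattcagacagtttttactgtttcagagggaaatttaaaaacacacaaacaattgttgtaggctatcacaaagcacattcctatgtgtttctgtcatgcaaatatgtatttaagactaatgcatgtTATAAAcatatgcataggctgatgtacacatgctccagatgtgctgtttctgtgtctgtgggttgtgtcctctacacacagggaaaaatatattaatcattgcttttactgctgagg
Col5a1, chr2:27886175-27886380: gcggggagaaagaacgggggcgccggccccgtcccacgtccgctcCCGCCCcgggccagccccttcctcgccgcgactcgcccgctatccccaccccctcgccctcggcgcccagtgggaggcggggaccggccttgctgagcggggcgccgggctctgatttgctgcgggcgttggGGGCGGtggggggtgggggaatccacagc
Col1a2, chr6:4505368-4505617: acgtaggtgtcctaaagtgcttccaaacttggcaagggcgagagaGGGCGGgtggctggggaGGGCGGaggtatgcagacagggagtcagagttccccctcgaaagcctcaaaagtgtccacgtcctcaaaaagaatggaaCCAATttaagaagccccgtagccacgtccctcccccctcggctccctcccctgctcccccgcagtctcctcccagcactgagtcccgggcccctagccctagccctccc

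The Col3a1 window was 35.2% G and C, at percentile 5.41 of 32851 windows of 250 bases, and it held 1 TATAAA, 117 bases before the start. The Col5a1 window was 76.4% G and C, at percentile 97.2, and it held the GC box at 205 bases, as CCGCCC, and at 73 bases, as GGGCGG, before the start of the window's transcript; its last 44 bases, which lie inside the annotated gene, are not printed. The Col1a2 window was 62.0% G and C, with GGGCGG at 205 and 188 bases and CCAAT at 109 bases before the start. Over all windows the median was 52.4% G and C. CCAAT or its complement occurred in 33.8% of windows, TATAAA in 12.4%, GGGCGG in 32.7% and a CIC octamer in 3.19%. None of the 3 printed windows held a CIC octamer.

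Values are log2 of the deposited signal, made linear, plus an offset of 1.42, which raises the dimmest values and shrinks differences between them. This is called the deposited scale, or "as deposited", and a difference of 1 is a doubling. Probe sets were called at an adjusted p under 0.05 and a log2 fold change of at least 1 in either direction, and fold changes are given ± SE from the limma fit. The arrays had nearly the same trimmed mean signal (500.1 to 500.3) but different shapes: the 99th percentile was 14.22 to 15.04 in eMC empty, 13.22 to 13.66 in eMC CIC-DUX4, 13.48 to 15.04 in CDS and 13.62 to 14.02 in ES. Counts of member calls are therefore also given after quantile normalization ("quantile"), which forces 1 distribution on all arrays, and single changes where it alters a call or a sign. The median over all tested probe sets was 1.98 in eMC CIC-DUX4 against eMC empty, 0.89 in CDS and 0.41 in ES against eMC empty, 0.21 in CDS against ES and -0.94 in CDS against eMC CIC-DUX4, and lay between -0.07 and -0.01 after quantile normalization. The 3 comparisons with eMC empty share those 4 arrays. Of the labelled types, Etv4, a gene turned on by CIC-DUX4, averaged 12.98 in CDS and 3.80 in ES, and 2.74 in eMC CIC-DUX4, where Etv1 and Etv5 averaged 8.85 and 10.62; of 3 Ewing sarcoma markers only Prkcb passed the filter, and its mean was 8.03 in ES against 9.43 in CDS. Of the 7 mesenchymal markers, Twist2 was below the dip between the dim and the bright part of the array (used here as the limit of measurement) in all CDS and ES arrays and Twist1 in all ES arrays. In CDS against ES 3 of the 7 were called higher and 1 lower, and 1 and 1 on the quantile scale: Twist1 averaged 9.26 and 2.57, Vim 15.45 and 14.11, Cdh11 13.53 and 12.37, and Pdgfra 4.30 and 9.24. In bulk samples, fewer cells of a type and less RNA per cell cannot be told apart.

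**Figure D1:**
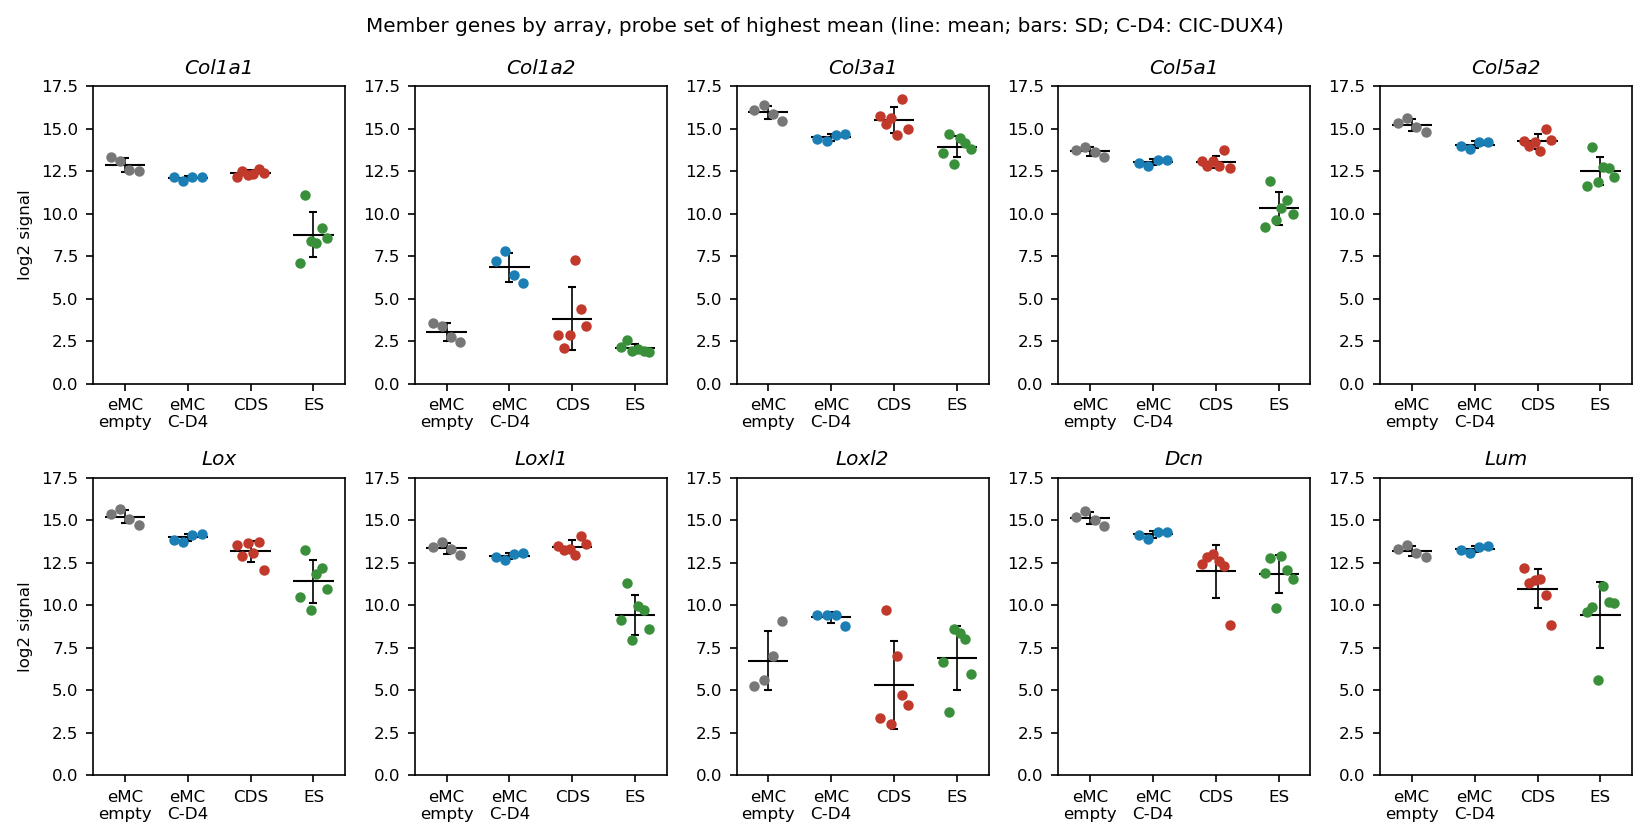
Log2 signal on the deposited scale (y axis) of each member gene, by the probe set of highest mean, in every array of the 4 groups (x axis; C-D4 is CIC-DUX4). Points are arrays, lines are group means and bars are SD; the ES tumors lie lowest for Col1a1, where the 6 values run from 7.06 to 11.07, and Dcn is low in both tumor types.

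Type I collagen was read by Col1a1, whose chain forms most of the trimer. Its signals were 13.33, 13.10, 12.55 and 12.48 in eMC empty and 12.12, 11.91, 12.18 and 12.16 in eMC CIC-DUX4. In CDS tumors they ran from 12.12 to 12.64 with a median of 12.36, and in ES tumors from 7.06 to 11.07 with a median of 8.49. The CDS tumors were thus tightly grouped (SD 0.18) within the range spanned by the cultures, and all ES tumors lay below every other array, with an SD of 1.33. Col1a2 had a single probe set, which was below the dip in all eMC empty arrays, all ES arrays and 5 of 6 CDS arrays. It averaged 3.04 in eMC empty, 6.83 in eMC CIC-DUX4, 3.81 in CDS and 2.07 in ES, so that this gene was hardly measured in 3 of the 4 groups.

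Type III collagen gave Col3a1 signals of 16.09, 16.38, 15.85 and 15.45 in eMC empty and 14.39, 14.24, 14.64 and 14.67 in eMC CIC-DUX4. CDS tumors ran from 14.59 to 16.75 (median 15.44) and ES tumors from 12.94 to 14.66 (median 13.97). The tumor ranges overlapped only through CDS tumor 4 and ES tumor 46. The second probe set of Col3a1 averaged 12.99, 12.79, 13.39 and 11.06 in eMC empty, eMC CIC-DUX4, CDS and ES.

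For type V collagen, Col5a1 was at 13.76, 13.92, 13.63 and 13.33 in eMC empty and at 12.97, 12.79, 13.12 and 13.17 in eMC CIC-DUX4. CDS tumors ran from 12.69 to 13.71 (median 12.94) and ES tumors from 9.21 to 11.90 (median 10.16), with no overlap between the tumor types. Its partner chain Col5a2 was at 15.33, 15.63, 15.09 and 14.77 in eMC empty, at 13.96, 13.77, 14.18 and 14.23 in eMC CIC-DUX4, at 13.68 to 14.98 (median 14.25) in CDS and at 11.65 to 13.89 (median 12.42) in ES. Only ES tumor 46, at 13.89, reached into the CDS range. Of the other 2 probe sets of Col5a1, 1434479_PM_at averaged 10.63 in CDS, with CDS tumor 5 at 7.38 and below the dip, and 8.72 in ES. Probe set 1416741_PM_at averaged 6.33 in CDS and 3.51 in ES, with all 6 ES arrays below the dip.

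Among the cross-linking enzymes, Lox (chr18:52516060-52529867) had its lowest group means in the tumors. It was at 15.38, 15.62, 15.04 and 14.72 in eMC empty and at 13.85, 13.71, 14.14 and 14.19 in eMC CIC-DUX4. CDS tumors ran from 12.08 to 13.69 (median 13.30), all below both cultures, and ES tumors from 9.71 to 13.26 (median 11.37), which overlapped with CDS. Loxl1 did not follow this pattern: it was at 13.43, 13.73, 13.27 and 12.94 in eMC empty, at 12.80, 12.67, 13.01 and 13.08 in eMC CIC-DUX4 and at 12.91 to 14.06 (median 13.37) in CDS. Only the ES tumors, at 7.92 to 11.29 (median 9.42), stood apart for Loxl1. Loxl2 had no group pattern of that kind as deposited. On the quantile scale it ran from 8.61 to 9.05 in eMC empty and from 7.61 to 8.40 in eMC CIC-DUX4. There it ran from 3.61 to 8.78 in CDS and from 4.95 to 7.85 in ES. As deposited it was at 5.24, 5.61, 6.99 and 9.07 in eMC empty, at 9.44, 9.44, 9.43 and 8.76 in eMC CIC-DUX4, at 3.00 to 9.73 (median 4.40) in CDS and at 3.69 to 8.61 (median 7.31) in ES, and it was below the dip in 2, 0, 4 and 1 arrays of those groups.

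Both fibril-coating proteoglycans were high in the cultures and lower in both tumor types. Dcn was at 15.20, 15.53, 15.01 and 14.67 in eMC empty and at 14.11, 13.91, 14.31 and 14.32 in eMC CIC-DUX4. It ran from 8.83 to 12.99 (median 12.49) in CDS and from 9.82 to 12.91 (median 11.96) in ES, so the tumor types covered almost the same range. Lum was at 13.30, 13.55, 13.04 and 12.82 in eMC empty, at 13.23, 13.06, 13.42 and 13.45 in eMC CIC-DUX4, at 8.85 to 12.18 (median 11.36) in CDS and at 5.59 to 11.13 (median 9.97) in ES. No tumor reached the lowest culture for either gene.

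Against eMC empty, the ES tumors had lower signals for the collagen chains, Lox, Loxl1, Dcn and Lum alike. Col1a1 fell by 4.11 ± 0.60 on the log2 scale, a 17.3-fold difference, Loxl1 by 3.91 ± 0.52 (15.0-fold) and Lox by 3.80 ± 0.55 (13.9-fold). Lum fell by 3.77 ± 0.82, Col5a1 by 3.35 ± 0.43, Dcn by 3.28 ± 0.48, Col5a2 by 2.71 ± 0.37 and Col3a1 by 2.02 ± 0.29. Their adjusted p ran from 6.94e-05 for Col5a1 to 0.00277 for Lum. Col1a2, below the dip in both groups, had a change of -0.98 (adjusted p = 0.00372), just under the fold limit. It passed with no offset (-1.30), on the quantile scale (-1.20) and without ES tumor 46 (-1.07), eMC empty 6 (-1.07) or eMC empty 7 (-1.18). Loxl2 had a change of 0.14 ± 1.09 (adjusted p = 0.919), which became -2.40 after quantile normalization and was then called.

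Over probe sets, 13 of 16 were called lower and 0 higher in ES against eMC empty, where 9.77% of all probe sets were called lower and 25.8% higher (35.6% either way). After quantile normalization all 16 tested were called lower, against 19.0% of all probe sets (37.0% called either way). The second Loxl1 probe set, 1 of the 13, was below the dip in both groups, so its change has no bound. The median change of the 16 was -2.98, beside 0.41 for all probe sets. For 13 of the 16 the 2 groups did not overlap (32.7% of all probe sets). Markers of mesenchymal and other cells differed between these groups. The 7 mesenchymal markers summed to 23722 to 40160 linear signal units in ES and 80781 to 137735 in eMC empty. By gene, 0 of the 7 were called higher and 5 lower, and 0 and 4 on the quantile scale. Pdgfra (9.24 in ES, 7.53 in eMC empty) and Thy1 (9.96 and 9.33) had higher means in ES, and the others lower ones. The 7 endothelial markers measured of 8 summed to 713 to 5259 in ES and 34 to 58 in eMC empty, with all 7 below the dip in eMC empty, and the 8 macrophage markers to 8404 to 26309 against 320 to 2430. Their part in the result was not tested.

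In CDS tumors, by contrast, Lox, Dcn and Lum were called lower against eMC empty, and the main probe sets of the collagen chains and Loxl1 were not called. Col1a2, below the dip in all eMC empty arrays and 5 of 6 CDS arrays, gives no level to compare. Col1a1 had a change of -0.48 ± 0.30 (adjusted p = 0.25), Col3a1 of -0.45 ± 0.29 (0.252), Col5a1 of -0.63 ± 0.27 (0.106) and Loxl1 of 0.08 ± 0.27 (0.825). The other Col5a1 probe sets, at -1.13 (limma adjusted p = 0.215) and 1.58 (0.331), were not called. Nor was the second Col3a1 probe set, at 0.39 (limma adjusted p = 0.332). Col5a2, at -0.95 ± 0.23, had an adjusted p of 0.0069 but missed the fold limit; it passed without CDS tumor 5 (-1.10) and without eMC empty 7 (-1.10). Lox fell by 2.04 ± 0.30 (adjusted p = 5.15e-05), and by 2.88 ± 0.32 on its second probe set. Dcn fell by 3.11 ± 0.56, an 8.66-fold difference, and Lum by 2.20 ± 0.50, a 4.61-fold difference (adjusted p = 0.000474 and 0.00407). A p that misses the threshold does not show that the collagen levels are equal.

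These were 4 probe sets called lower and 1 higher of 16, where 4.89% of all were called lower and 13.2% higher (18.1% either way). The quantile scale gave 5 lower and 1 higher, with 19.9% and 18.2% of all (38.1% either way). The 1 higher was the second Loxl1 probe set, 1436063_PM_at, at 3.35 ± 1.06 (adjusted p = 0.0319). All 4 eMC empty arrays were below the dip there, and the CDS mean was at least 1.75-fold higher. The 5 calls were the same on both scales, and Loxl2 was added on the quantile scale at -3.50, from -1.41 ± 1.31 as deposited. The members' median change was -0.56 beside 0.89 for all probe sets, and 5 of 16 did not overlap between the groups (21.3% of all). The mesenchymal markers summed to 34129 to 126314 in CDS against 80781 to 137735 in eMC empty and the endothelial ones to 4879 to 10059 against 34 to 58; their part was not tested. With the same median in every array, the limma call for Lum ended (-2.91, adjusted p = 0.0647).

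**Figure D2:**
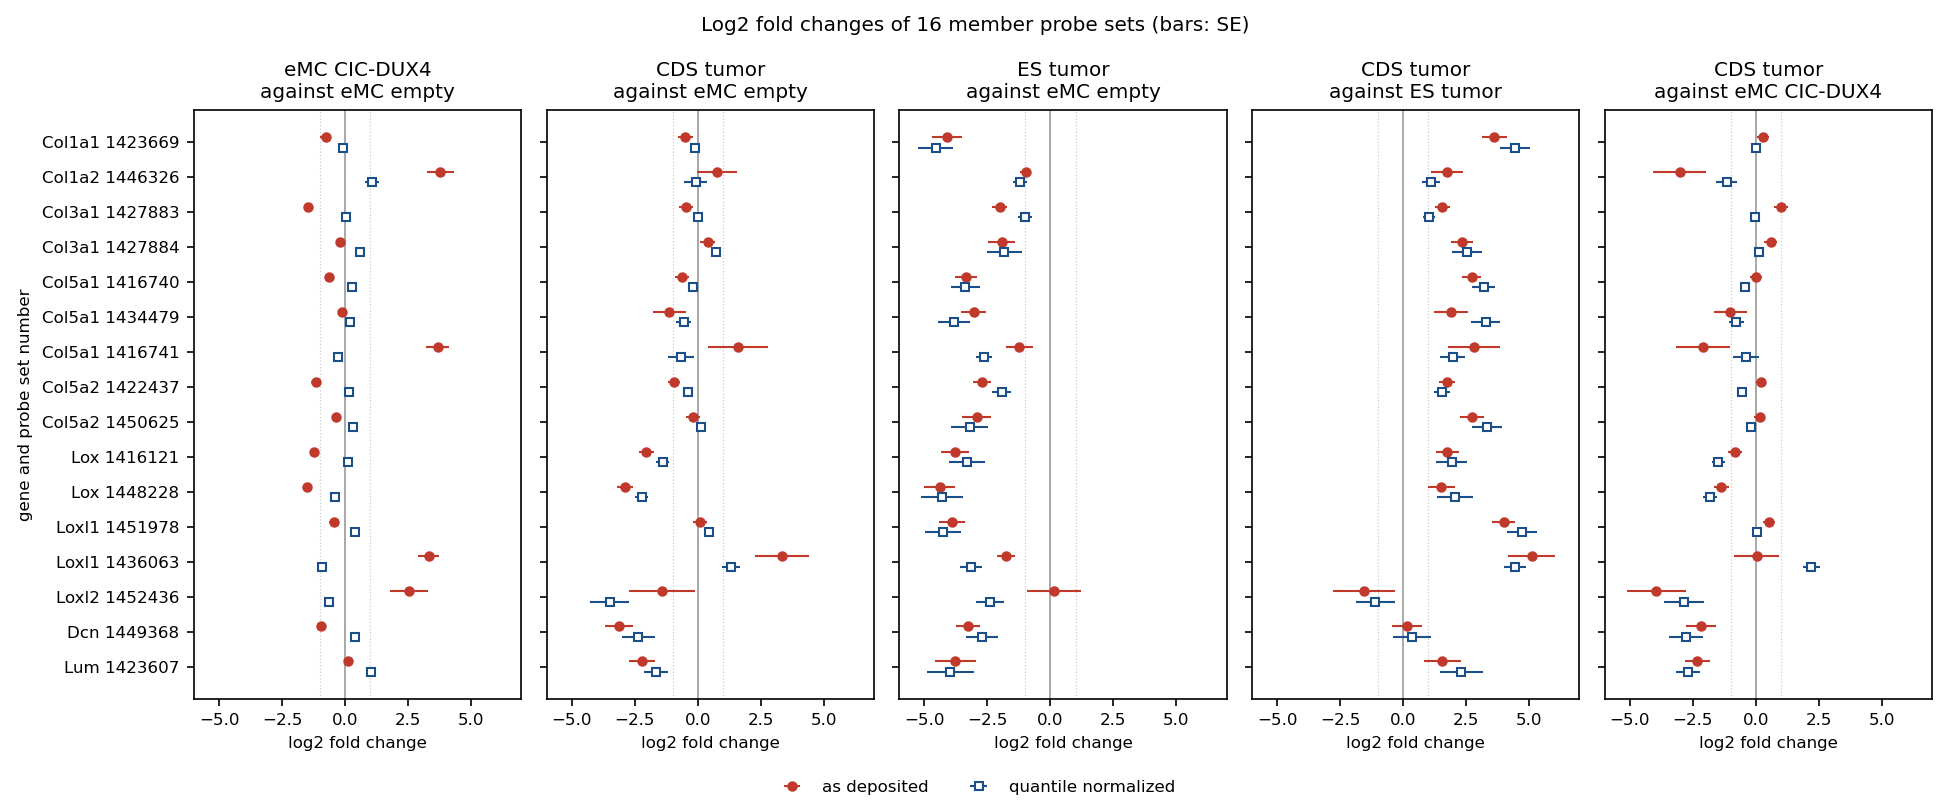
Log2 fold change (x axis, bars SE) of the 16 tested member probe sets (y axis) in the 5 comparisons, as deposited (filled circles) and after quantile normalization (open squares); dotted lines mark a change of 1. The third panel lies left of 0 for nearly all probe sets and the fourth right of 0 for all but Loxl2, while in the first panel the scales disagree in sign for most.

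Set directly against ES tumors, CDS tumors had higher signals for types I, III and V collagen, Lox and Loxl1. The largest differences among the members' main probe sets were Loxl1 at 3.99 ± 0.44 (15.9-fold, adjusted p = 2.79e-06) and Col1a1 at 3.62 ± 0.50 (12.3-fold, 3.86e-05). Col5a1 rose by 2.72 ± 0.38 (6.60-fold), Lox by 1.76 ± 0.46 (3.39-fold), Col5a2 by 1.75 ± 0.31 (3.37-fold) and Col3a1 by 1.56 ± 0.31 (2.96-fold). Their adjusted p ran from 4.94e-05 for Col5a1 to 0.0117 for Lox. With the same median in every array, the limma calls ended for Lox (0.75, adjusted p = 0.439), Col3a1 (0.55, 0.448), Col5a2 (0.74, 0.323) and Col5a1 (1.71, 0.0595), and that for Lox also with eBayes without trend (0.0515). Dcn, at 0.17 ± 0.60 (adjusted p = 0.857), was not called on either scale. Lum, at 1.56 ± 0.74 (0.127), was called on the quantile scale (2.30, adjusted p = 0.0456), and Loxl2, at -1.55 ± 1.23 (0.357), was the only member with a lower mean in CDS.

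Of the 16 probe sets 10 were called higher and 0 lower in CDS against ES, with 11.1% of all probe sets higher and 8.71% lower (19.8% either way). After quantile normalization it was 14 higher and 0 lower, with 15.2% and 15.7% of all (30.8% either way). All 10 were called on both scales. The second Loxl1 probe set, below the dip in all ES arrays, was at least 6.12-fold higher. Col1a2, at 1.74 (adjusted p = 0.0519), and the probe sets 1434479_PM_at and 1416741_PM_at of Col5a1, at 1.91 (0.0518) and 2.82 (0.0543), missed the threshold as deposited. Col1a2 passed with no offset (2.10, adjusted p = 0.0371), on the quantile scale (1.12) and when CDS tumor 1, 2, 3 or 4 was left out, which gave 1.94, 2.09, 1.93 and 1.05. The members' median was 1.84 beside 0.21 for all probe sets. For 6 of 16 the tumor types did not overlap (15.1% of all).

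Markers of several cell types and of the state of the RNA also differed between the tumor types. The 7 mesenchymal markers summed to 34129 to 126314 in CDS and 23722 to 40160 in ES. The 4 pericyte markers measured of 6 summed to 17785 to 66446 in CDS and 3405 to 14017 in ES, and the 7 endothelial markers to 4879 to 10059 and 713 to 5259. Of the 4 pericyte markers 1 was called higher and 0 lower as deposited, and 2 and 1 on the quantile scale. Rgs5, the brightest of them, averaged 14.80 in CDS and 12.61 in ES, and Notch3 9.89 and 9.11. Kcnj8 averaged 7.16 in CDS and 7.95 in ES, and Higd1b 3.28 and 3.63. The 8 macrophage markers ran from 2246 to 16519 in CDS and from 8404 to 26309 in ES. Those of skin fibroblasts (3 of 5 measured, with Dpp4 below the dip in all ES arrays) covered similar ranges, 46 to 1866 and 69 to 1349. The skeletal muscle markers varied widely within both, from 511 to 274065 in CDS and from 11 to 178494 in ES, keratinocyte markers ran from 21 to 325 and from 336 to 12396, and the 3 adipocyte markers measured of 5, with Lep below the dip in every tumor, from 4882 to 29242 and from 4020 to 17140. The 3′ minus 5′ signal of Actb, a measure of RNA length, was 0.80 ± 0.36 (SD) in CDS and 0.25 ± 0.05 in ES, and 0.17 ± 0.03 in eMC empty. Their part in the collagen result was not tested.

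Among ES tumors the SD was 1.33 for Col1a1, 0.95 for Col5a1, 0.81 for Col5a2 and 1.17 for Loxl1, against 0.18, 0.37, 0.43 and 0.38 among CDS tumors; for Col3a1 it was 0.63 against 0.75. ES tumor 46 was the highest ES array for Col1a1 (11.07, the next being 9.17), Col3a1, Col5a1, Col5a2, Lox (13.26) and Loxl1 (11.29). Relative to the eMC empty mean it was lower by only 1.80 for Col1a1, where ES tumor 41 was lower by 5.80. This tumor also had the highest summed ES signals for mesenchymal (40160), endothelial (5259), pericyte (14017) and skin fibroblast markers (1349), whose part in its high collagen signals was not tested. At the low end, ES tumor 41 was lowest for Col1a1 (7.06), Col5a1 (9.21) and Col5a2 (11.65), and had the lowest sums for mesenchymal (23722), endothelial (713), pericyte (3405) and skin fibroblast markers (69). ES tumor 47 was lowest for Col3a1 (12.94), Lox (9.71), Loxl1 (7.92), Dcn (9.82) and Lum (5.59). Loxl2 ran the other way, lowest in ES tumor 46 (3.69) and highest in ES tumor 47 (8.61). Without ES tumor 46 the CDS against ES difference of Col1a1 was 4.09 and that of Loxl1 4.36.

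Among CDS tumors the proteoglycans and Lox set 1 tumor furthest apart. CDS tumor 6 was lowest for Dcn (8.83, the next being 12.28), Lum (8.85, the next 10.56) and Lox (12.08, the next 12.91), while its Col1a1 signal of 12.41 lay in the middle of the CDS range. It was also lowest for Col5a1 (12.69) and for the second Col3a1 probe set (12.75, the next 13.07), and on the quantile scale for Col3a1 (14.64, the others 15.21 to 15.36) and Col5a1 (12.47, the next 12.95). It also had the lowest CDS sums for skin fibroblast (46), macrophage (2246) and adipocyte markers (4882) and the largest Actb 3′ minus 5′ signal (1.28). The part of these in the low Dcn and Lum was not tested. Without CDS tumor 6, Dcn was still lower in CDS than in eMC empty, by 2.48 (adjusted p = 3.01e-06), and Lum by 1.78 (adjusted p = 0.00276).

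**Figure D3:**
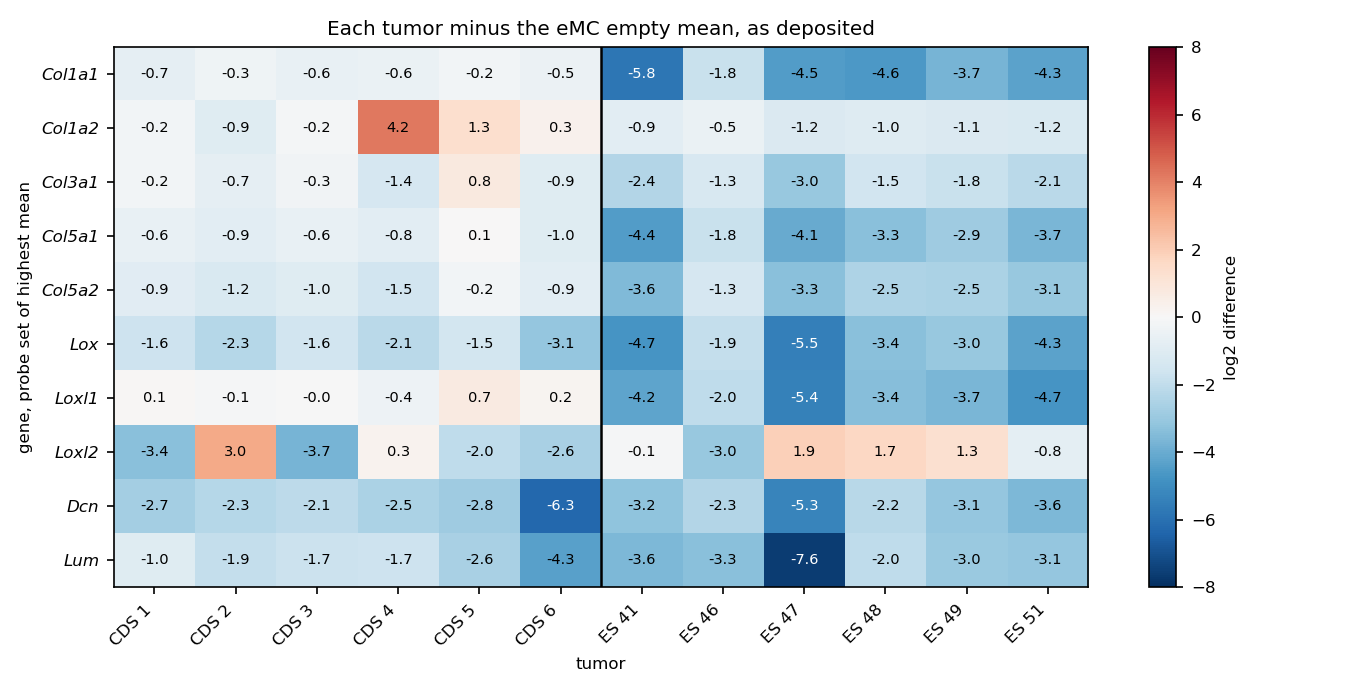
Log2 signal of each tumor minus the eMC empty mean (colour and printed value) for each member gene by its probe set of highest mean (y axis) in 6 CDS and 6 ES tumors (x axis). ES tumor 46 is the palest ES column for the collagens, CDS tumor 6 is darkest among CDS for Dcn and Lum, and Loxl2 differs in sign between tumors.

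The early effect of CIC-DUX4 in eMC on these genes could not be given a direction independent of scaling. As deposited, Col3a1 (-1.46 ± 0.18), Col5a2 (-1.17 ± 0.17) and both Lox probe sets (-1.22 ± 0.19 and -1.51 ± 0.18) were called lower. Called higher were Col1a2 (3.79 ± 0.54), Loxl2 (2.54 ± 0.77), the dim Col5a1 probe set 1416741_PM_at (3.68 ± 0.45, with 3 of 4 eMC empty arrays below the dip) and the dim Loxl1 probe set 1436063_PM_at, the last at least 1.71-fold. On the quantile scale the changes of Col3a1, Col5a2 and the main Lox probe set were 0.04, 0.17 and 0.10, and Loxl2 turned to -0.65. The quantile scale called only Col1a2 (1.07 ± 0.29, adjusted p = 0.00857) and Lum (1.04 ± 0.03, 1.82e-10), both higher, and Lum stood at 0.11 as deposited. Col1a2 was thus the only member called with the same sign on both, and its eMC empty arrays were all below the dip. The eMC CIC-DUX4 mean of Col1a2 did not exceed those dips, so its change has no lower bound. The Loxl2 call was lost without eMC CIC-DUX4 6 (2.48, limma adjusted p = 0.0606) or eMC empty 4 (2.04, 0.0529). Further limma fits that lost it had all 4 groups in 1 fit (2.54, adjusted p = 0.0899) or the same median in every array (0.98, 0.655). It was also lost without the arrays of high median, eMC CIC-DUX4 5 and 6 (2.37, limma adjusted p = 0.121). Dcn, at -0.94 as deposited, was called without eMC empty 7 (-1.08).

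In numbers, 4 probe sets were called higher and 4 lower of 16, where 43.4% of all were called higher and 4.18% lower (47.5% either way). Quantile values gave 2 higher and 0 lower, with 7.43% and 6.11% of all (13.5% either way). The members' median was -0.40 beside 1.98 for all probe sets as deposited, and 0.19 beside -0.01 on the quantile scale. Of the 16, 10 did not overlap between the groups (53.2% of all). eMC CIC-DUX4 5 and 6 had array medians of 6.13 and 7.05, against 2.50 and 2.33 in eMC CIC-DUX4 7 and 8. Marker sums as deposited differed too, in eMC CIC-DUX4 against eMC empty: 5394 to 5532 against 320 to 2430 for macrophages, 1574 to 1931 against 40 to 425 for pericytes, 1816 to 1924 against 55 to 565 for skin fibroblasts and 40264 to 55287 against 80781 to 137735 for mesenchymal cells. By gene, 3 of the 7 mesenchymal markers were called higher and 2 lower, and 1 and 0 on the quantile scale (median 0.28). Of the 8 macrophage markers 5 were called higher and 0 lower, and 2 and 3 on the quantile scale (median -0.45). Called higher were 3 of 4 pericyte and 2 of 3 skin fibroblast markers, and 2 and 1 on the quantile scale. The part of these markers in the result was not tested. The bright members differed little between these 4 arrays, with Col1a1 at 11.91 to 12.18.

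Between eMC CIC-DUX4 and the CDS tumors, Dcn, Lum, Loxl2 and the second Lox probe set were called lower. Dcn fell by 2.17 ± 0.60 (adjusted p = 0.0214) and Lum by 2.32 ± 0.49 (0.00451), with -2.76 and -2.70 on the quantile scale. The limma calls ended for both without the arrays of high median (adjusted p = 0.0832 and 0.0526) and with the same median in every array, and for Dcn with eBayes without trend (0.0873). The second Lox probe set fell by 1.37 ± 0.30 (0.00555); the main one, at -0.82 (0.0542), was called on the quantile scale (-1.49). Loxl2 fell by 3.95 ± 1.18 (0.031), a call lost with eBayes without trend (0.0524), with the same median (0.184) and when any of CDS tumors 1, 3, 5 and 6 or any of the eMC CIC-DUX4 arrays was left out, with values between -4.12 and -3.48 in those fits. Col3a1 was called higher at 1.01 ± 0.29 (0.0276), but was -0.01 on the quantile scale. That call was lost without CDS tumor 1, 3 or 5 or eMC CIC-DUX4 5 or 6, with values from 0.75 to 0.97. Col1a1 (0.29), Col5a1 (0.01), Col5a2 (0.21) and Loxl1 (0.53) were not called. Col1a2, at -3.02 (adjusted p = 0.0602), was called on the quantile scale (-1.16, 0.037) and with all 4 groups in 1 fit (0.00545). Of 16 probe sets 1 was called higher and 4 lower, with 4.47% and 12.1% of all (16.6% either way). The quantile scale gave 1 and 6, the 1 being the second Loxl1 probe set (2.21, adjusted p = 0.000174; 0.03 as deposited) in place of Col3a1, with 17.1% and 19.0% of all (36.1% either way). The members' median was -0.40 beside -0.94 for all probe sets, and 4 of 16 did not overlap (23.2% of all).

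Differences between members within the same array ask whether the members changed by unequal amounts, since a shift common to an array cancels. Unequal shapes of the arrays do not cancel, and on the quantile scale 3 of the 15 differences between groups turned sign. The level of such a difference has no meaning between probe sets, and only its change between groups is read. Col3a1 minus Col1a1 was 3.08 ± 0.26 (SD) in eMC empty, 2.39 ± 0.11 in eMC CIC-DUX4, 3.11 ± 0.69 in CDS and 5.17 ± 1.08 in ES. The Col1a1 signal was thus lower in ES by more than the Col3a1 signal, by 2.09 against eMC empty (exact two-sided permutation test, p = 0.0143, adjusted over 15 tests 0.0357) and by 2.06 against CDS (exact p = 0.00649, adjusted 0.0324). Against eMC empty the adjusted p was 0.0669, 0.0536 and 0.0669 by the same exact test without eMC empty 4, 5 and 7, with 1.99, 2.16 and 2.06. In ES tumors 41 and 48 the difference was 6.52 and 6.19, and in ES tumor 46 it was 3.59, inside the CDS range of 2.28 to 4.11. Col5a1 minus Col1a1 differed less between the tumor types, 0.65 ± 0.35 in CDS and 1.55 ± 0.51 in ES (exact p = 0.00866, adjusted 0.0325).

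Lox minus Col1a1 had its lowest group mean in the CDS tumors. It was 2.33 ± 0.22 in eMC empty, 1.88 ± 0.14 in eMC CIC-DUX4, 0.77 ± 0.67 in CDS and 2.64 ± 0.86 in ES. The CDS mean was lower than eMC empty by 1.55 (exact p = 0.00476, the smallest this design allows, adjusted 0.0324), than ES by 1.86 (exact p = 0.00649, adjusted 0.0324) and than eMC CIC-DUX4 by 1.11 (exact p = 0.0143, adjusted 0.0357). The ranges of CDS and ES overlapped, with ES tumor 47 at 1.31. Within CDS it ran from -0.33 in tumor 6 to 1.43 in tumor 1. On the quantile scale the 3 differences were -1.29, -2.51 and -1.48 and stayed past the threshold. ES against eMC empty, at 0.31 (exact p = 0.519), did not pass as deposited but did on the quantile scale (1.23, exact adjusted p = 0.0429). Without CDS tumor 2, which had an array median of 5.67, the CDS differences from ES and from both cultures in Lox minus Col1a1 were -1.79, -1.48 and -1.03, with exact adjusted p of 0.0519, 0.0519 and 0.0536; without it the other 2 CDS against ES differences were -1.98 and -0.83, each with an exact adjusted p of 0.0519. The difference from eMC empty also missed the threshold without eMC empty 5 (-1.49, exact adjusted p = 0.0536), and that from eMC CIC-DUX4 in 7 of 10 such fits, those without CDS tumor 2, 4 or 5 (exact adjusted p = 0.0536) or any eMC CIC-DUX4 array (0.0765).

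**Figure D4:**
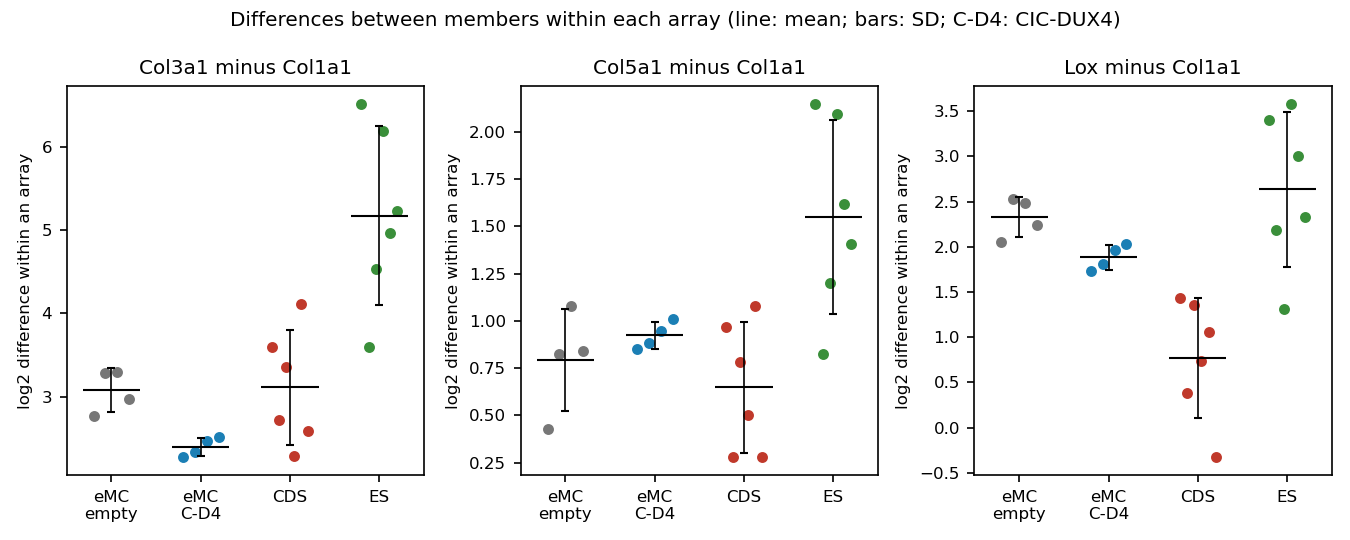
Log2 difference between 2 members within an array (y axis) for every array of the 4 groups (x axis; C-D4 is CIC-DUX4), with group mean (line) and SD (bars). The ES tumors lie highest for Col3a1 minus Col1a1, at 3.59 to 6.52, and the CDS tumors lowest for Lox minus Col1a1, at -0.33 to 1.43.

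Collagen chains need hydroxylation and folding in the endoplasmic reticulum before secretion, and 16 genes of that machinery were tested, of 20 listed. In CDS against ES 10 rose and 0 fell, where 11.1% of all probe sets were called higher and 8.71% lower, with a median of 1.98 beside 0.21 for all. Against eMC empty, the shares of all probe sets called higher and lower to set beside the list counts are 25.8% and 9.77% for ES and 13.2% and 4.89% for CDS. Creb3l1, a transcription factor linked to collagen secretion, rose by 4.50 ± 0.91, P4ha2, a prolyl hydroxylase subunit, by 3.39 ± 0.79 and P3h3, of the prolyl hydroxylase family, by 2.86 ± 0.45. In ES against eMC empty 0 rose and 8 fell (median -1.51), with P4ha2 at -4.22 ± 0.94. In CDS against eMC empty 4 rose and 0 fell (median 0.17), with Creb3l1 at least 4.07-fold higher, its eMC empty arrays being below the dip, P3h3 at 3.33 ± 0.72 (quantile 1.70) and the lysyl hydroxylase Plod1 at 2.61 ± 0.73 (quantile 1.24). Creb3l1 was not called there on the quantile scale (1.75, adjusted p = 0.0523). That scale gave 3 higher and 1 lower in CDS against eMC empty (median -0.0004), beside 18.2% and 19.9% of all.

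Enzymes that trim the propeptides of procollagen, or cross-link by other means, gave 4 higher and 0 lower of 7 tested (11 listed) in CDS against ES, with a median of 2.40. Pcolce, which enhances cleavage of the C-propeptide, rose by 3.02 ± 0.33 and the lysyl oxidase relative Loxl3 by 2.40 ± 0.44. The N-propeptidase Adamts3 was called higher but averaged 4.45 in CDS and 1.80 in ES, with no ES array above the dip and no lower bound on its fold. Against eMC empty 3 rose and 1 fell in CDS (median 1.52): the transglutaminase Tgm2 was at least 9.36-fold higher, Loxl3 rose by 3.45 ± 0.70 (quantile 2.00) and the C-propeptidase Bmp1 by 3.21 ± 0.84 (quantile 1.26). In ES 2 rose and 3 fell (median -1.13), with Pcolce at -4.11 ± 0.35 and Tgm2 at least 4.02-fold higher; Tgm2 was not called on the quantile scale.

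Other fibrillar and fibril-associated collagens were represented by 11 tested genes of 12 listed. In CDS against ES 7 rose and 0 fell (median 2.27), among them the cartilage collagen Col2a1, at least 269-fold, Col24a1, at least 112-fold, and Col11a1 (5.73 ± 1.19). The first 2 were below the dip in every ES array. Against eMC empty 4 rose and 0 fell in CDS (median 1.53), among them Col24a1, at least 31.97-fold, Col27a1 (3.83 ± 1.02, quantile 2.02) and Col16a1 (3.41 ± 1.08, quantile 1.68), and 0 rose and 5 fell in ES (median -1.54). Col2a1 averaged 11.61 in eMC empty, 12.76 in eMC CIC-DUX4, 13.12 in CDS and 2.16 in ES, so that ES was the group with a low level.

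Of 18 tested fibril-binding proteoglycans and glycoproteins (19 listed), 12 rose and 0 fell in CDS against ES, with a median of 1.75. Fibromodulin (Fmod), a close relative of Lum that binds type I collagen, rose by 6.74 ± 1.04 and Abi3bp by 4.64 ± 1.28, and Prelp was at least 2.40-fold higher. In CDS against eMC empty 3 rose and 3 fell (median 0.01): Fmod rose by 5.48 ± 0.73 (quantile 3.28), from 5.91 to 11.39, where Dcn and Lum fell. Osteoglycin (Ogn), of the same family, fell by 3.81 ± 0.95, and Abi3bp was at least 1.82-fold higher, the last not called on the quantile scale. Quantile counts in CDS against eMC empty were 2 higher and 5 lower (median -0.32), beside 18.2% and 19.9% of all. In ES against eMC empty 0 rose and 13 fell (median -1.86), with Ogn at -7.10 ± 1.53 and eMC empty at least 2.15-fold above ES for Prelp.

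Elastic fibre genes (12 tested of 15 listed) gave 4 higher and 1 lower in CDS against ES (median 2.47), with Ltbp2 at 5.30 ± 0.92, Emilin1 at 3.17 ± 0.35 and fibrillin 2 (Fbn2) at -4.35 ± 0.80. Against eMC empty 3 rose and 1 fell in CDS (median 1.56), with Emilin1 at 4.48 ± 0.70 (quantile 2.88), elastin (Eln) at 3.22 ± 1.10 and Fbn2 at -4.10 ± 0.96; Eln was not called on the quantile scale. In ES 0 rose and 3 fell (median 0.43), with Ltbp2 at -4.21 ± 1.19. Of 6 collagen receptors (7 listed) none was called in CDS against ES (median 0.59) by limma as deposited, and 1 on the quantile scale. The collagen-binding integrin Itga1 rose in both tumor types against eMC empty, by 4.34 ± 0.97 in CDS (quantile 1.95) and 5.29 ± 0.57 in ES (quantile 2.40). The discoidin receptor Ddr2 fell in both, by 1.32 ± 0.39 and 1.75 ± 0.53, in ES not on the quantile scale. The endocytic receptor Mrc2 rose by 2.40 ± 0.73 in CDS but was not called on the quantile scale.

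TGF-beta, the classical inducer of fibrillar collagen genes, was covered by 14 tested genes of 15 listed. In CDS against ES 7 rose and 1 fell (median 0.77). The ligand Tgfb3 rose by 5.37 ± 0.81 and the inhibitory Smad7 by 2.79 ± 0.58, whereas the signal transducer Smad3 fell by 3.14 ± 0.56. In CDS against eMC empty 4 rose and 1 fell (median 0.74), with Tgfb3 at 4.93 ± 0.71 (quantile 3.10), Smad7 at 4.73 ± 0.82 (quantile 2.39) and the co-receptor Tgfbr3 at -2.91 ± 0.33. In ES against eMC empty 3 rose and 3 fell (median -0.16), with Smad3 at 4.02 ± 0.70 (quantile 2.45) and Tgfbr3 at -4.17 ± 0.39.

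The lists were also counted in the 2 comparisons that involve eMC CIC-DUX4. In eMC CIC-DUX4 against eMC empty, where 43.4% of all probe sets were called higher and 4.18% lower, calls higher and lower were 5 and 3 for hydroxylation and folding, 6 and 1 for propeptide and cross-linking enzymes, 7 and 0 for other collagens, 6 and 4 for fibril-binding proteins, 7 and 0 for elastic fibre genes, 4 and 0 for receptors and 3 and 0 for TGF-beta genes. On the quantile scale these became 1 and 0, 4 and 0, 4 and 0, 6 and 0, 3 and 1, 2 and 1, and 1 and 0, beside 7.43% and 6.11% of all. In CDS against eMC CIC-DUX4 they were 2 and 1, 0 and 2, 1 and 0, 3 and 5, 2 and 2, 0 and 1, and 4 and 2, beside 4.47% and 12.1% of all. On the quantile scale these were 2 and 1, 2 and 3, 3 and 2, 2 and 6, 3 and 3, 0 and 1, and 5 and 2, beside 17.1% and 19.0% of all.

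**Figure D5:**
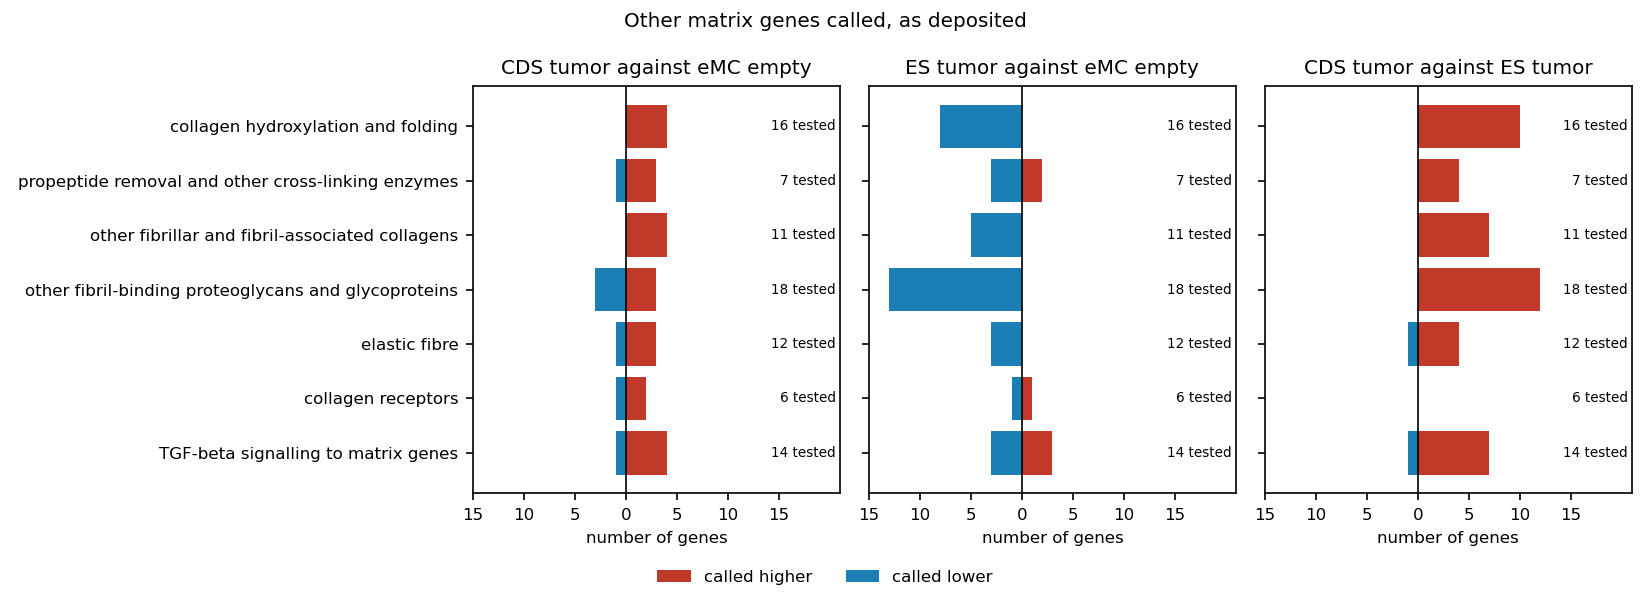
Number of genes called higher (right of 0) or lower (left of 0) in each list of other matrix genes (y axis), for 3 comparisons as deposited, with the number tested at the right edge. In CDS against ES, 10 of 16 hydroxylation and folding genes and 12 of 18 fibril-binding genes were higher and none of either lower.

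Across the 20 quantile-normalized arrays the members correlated with each other to unequal degrees, given here as a description of arrays that share groups. Col1a1, Col5a1, Col5a2 and Loxl1 had pairwise Pearson coefficients of 0.931 to 0.988, the highest being that between Col1a1 and Col5a1. Dcn and Lum correlated at 0.899 with each other, Dcn at 0.545 with Col1a1 and Lum at 0.796 with Col5a2. Lox was close to both sets, at 0.943 with Col5a2, 0.911 with Lum and 0.85 with Dcn. Col3a1 was at 0.834 with Lum, so the sets were not separate. Loxl2 was the least alike, at 0.124 with Loxl1 to 0.573 with Dcn. Within the 6 ES tumors alone, Col1a1 and Col5a2 had a coefficient of 0.987 and Dcn and Lum one of 0.939. That of Col1a1 and Lum was 0.254, but that of Dcn and Loxl1 was 0.87.

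The non-member genes whose pattern over 20 arrays was most like the mean of the members, of 12333 candidates, were Klf6 (Pearson 0.978 on the quantile scale), Mdfic (0.976), Dap (0.974), Zfp36l1 (0.971), Osmr (0.970) and Serpinf1 (0.969). As deposited their coefficients ran from 0.921 to 0.971. On that scale each had its highest group mean in eMC empty and its lowest in ES. The order of the cultures may depend on scaling, as it did for several members: Klf6 averaged 11.90 in eMC empty and 11.80 in eMC CIC-DUX4. As deposited, Osmr, a cytokine receptor, averaged 13.01 ± 0.29 (SD) in eMC empty, 12.28 ± 0.17 in eMC CIC-DUX4, 10.67 ± 0.40 in CDS and 8.88 ± 1.08 in ES. Serpinf1, a secreted serpin that binds collagen, averaged 14.47 ± 0.34, 13.51 ± 0.22, 13.35 ± 0.47 and 11.52 ± 0.65 in the same order.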

How the data were processed

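RNA of 20 samples was measured on Affymetrix mouse perfect-match arrays of 45141 probe sets. The authors deposited log2 signals made with MAS5, per the submitters' processing notes, which give no version. No columns were left unmapped, and no 2 arrays were identical. The signals were made linear, 104 control probe sets were removed and an offset of 1.42 (0.25 of the median of the array medians) was added before log2. Probe sets above their array's median in at least 4 of 20 arrays were tested (26897 probe sets, 12343 genes). Of the 45037 probe sets, 28898 had 1 gene symbol, 551 several and 15588 none, and none was named from a probe set with several. Each comparison had a fit of its own on its 2 groups, by lmFit and eBayes (trend on) of limma 3.58.1 under R 4.3.3, files being read by the data.table package, version 1.17.8, with Benjamini-Hochberg adjustment over all tested probe sets and calls at an adjusted p of 0.05 and a log2 change of 1. Within-array differences used exact two-sided permutation tests adjusted over 15. The fit was tested on simulated data. The number of arrays limits the precision.

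MAS5 scales each array to 1 trimmed mean, so groups whose distributions differ in shape shift against each other; quantile normalization and other scalings were alternatives. The dip is the lowest density between the dim and bright part of an array (bandwidth 0.35); eMC CIC-DUX4 6 has none. An "at least" fold sets the bright group's mean against the dim group's mean of the higher of dip and signal. The members and lists were chosen with earlier results of these data known. Named were all members, up to 3 called genes of largest change per list in CDS against eMC empty and against ES, and the 6 genes most like the members. A gene with several probe sets is given by that of highest mean. Replicate numbers shared by groups (4 to 7) were not taken as pairs, and no block entered the main tests. Deviations of same-numbered arrays correlated at -0.206 to 0.509 as deposited and at -0.0198 to 0.0447 on the quantile scale. Between the eMC groups, numbers 5, 6 and 7 gave 0.409, -0.182 and 0.415 as deposited. Whether the numbers pair the samples is not known from so few.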

Additional observations from a re-analysis of the deposited data

Results flagged for a closer look

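Of 68 groups of member values examined for 1 array far from the rest, 5 held one, where chance gives about 1 in 20. In CDS tumor 6, Dcn was at 8.83, with the next CDS tumor at 12.28, and the second Lox probe set was at 10.76, with the next at 11.76. In ES tumor 47, Lum was at 5.59, with the next ES tumor at 9.59. In CDS tumor 5, the Col5a1 probe set 1434479_PM_at was at 7.38, with the next CDS tumor at 10.72. In eMC CIC-DUX4 8, Loxl2 was at 8.76, with the next array at 9.43.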

How the results depend on the processing

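The counts of member probe sets called stayed within 1.5 times of the reported ones in all 5 comparisons with no offset, an offset of the median of medians, no filter, all 4 groups in 1 fit, gene level or no minimum fold. For eMC CIC-DUX4 against eMC empty the count of 8 became 2 after quantile normalization, 0 with the same median in every array and 4 with the same 95th percentile. With the same median, CDS against eMC empty gave 3 and CDS against ES 3. CDS against eMC CIC-DUX4, 5 as reported, gave 0 with the same median, 1 with eBayes without trend, 1 without the arrays of high median, 8 with the replicate block and 3 to 6 with single arrays left out. Shared replicate numbers changed no other count by over 1.5 times.

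Quantile normalization turned the sign, for the eMC CIC-DUX4 arrays set against the empty ones, of Col3a1 (0.038), Col5a1 (0.27), Col5a2 (0.17), Lox (0.10), Loxl1 (0.41), Loxl2 (-0.65) and Dcn (0.41). It did so for Col1a2 (-0.084) and Col3a1 (0.026) in CDS against eMC empty and for Loxl2 (-2.40) in ES against eMC empty. In CDS against eMC CIC-DUX4 it did so for Col1a1 (-0.0062), Col3a1 (-0.013), Col5a1 (-0.44) and Col5a2 (-0.56). The same median turned Lum (-1.44, eMC CIC-DUX4 against eMC empty), Loxl1 (-0.63, CDS against eMC empty), Dcn (-0.85, CDS against ES) and Lox (0.027, CDS against eMC CIC-DUX4). The same 95th percentile turned Loxl1 (0.071, eMC CIC-DUX4 against eMC empty), Col5a1 (-0.24) and Col5a2 (-0.042, both CDS against eMC CIC-DUX4). Without the arrays of high median, Dcn was -0.0023 in CDS against ES and Col5a1 -0.072 in CDS against eMC CIC-DUX4. With single arrays left out, values that crossed 0 ran from -0.12 to 0.082 (Col5a1, CDS against eMC CIC-DUX4), -0.23 to 0.80 (Dcn, CDS against ES), -0.052 to 0.21 (Loxl1, CDS against eMC empty), -0.35 to 0.93 (Loxl2, ES against eMC empty) and -0.0057 to 0.24 (Lum, eMC CIC-DUX4 against eMC empty).

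Of the within-array differences from Col1a1, quantile values in eMC CIC-DUX4 against eMC empty were 0.13 for Col3a1, 0.36 for Col5a1 and 0.20 for Lox. They were 1.18 for Col5a1 and 1.23 for Lox in ES against eMC empty, and -0.0063 for Col3a1 and -0.43 for Col5a1 in CDS against eMC CIC-DUX4. With the mean over probe sets Col5a1 was 0.43 (CDS against eMC empty), 1.56 (ES against eMC empty) and -1.14 (CDS against ES). Without the arrays of high median, Lox was -1.48 against eMC empty and -1.15 against eMC CIC-DUX4 in CDS, and CDS against ES gave -1.98 for Col3a1, -0.83 for Col5a1 and -1.79 for Lox, none past the threshold. With the replicate block, Col5a1 was -0.021 for eMC CIC-DUX4 against empty, and Col3a1 -0.12 and Lox -1.87 in CDS against eMC empty. With single arrays left out, CDS against ES ran from -2.38 to -1.79 (Col3a1), -1.05 to -0.78 (Col5a1) and -2.13 to -1.64 (Lox), and CDS against eMC CIC-DUX4 from -1.24 to -0.89 (Lox). CDS against eMC empty ran from -0.17 to 0.20 (Col3a1) and -1.69 to -1.33 (Lox), and ES against eMC empty from 1.82 to 2.41 (Col3a1) and 0.63 to 0.90 (Col5a1). eMC CIC-DUX4 against eMC empty ran from -0.79 to -0.61 (Col3a1), 0.0079 to 0.22 (Col5a1) and -0.53 to -0.38 (Lox). Beyond fewer samples where arrays were left out, the cause was not tested. Signals below the dip, as for Col1a2 and Loxl2, limit those genes.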
